A study of Mus musculus with 4 samples.

Results

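The MS4A genes encode a family of small proteins that cross the cell membrane several times, and many of them lie side by side in 1 gene cluster. The genes described here are Ms4a1, Ms4a2, Ms4a4b, Ms4a4c, Ms4a4d, Ms4a6b, Ms4a6c, Ms4a6d, Ms4a7 and Ms4a8a, taken as all probe sets of the array table whose only gene symbol was 1 of these 10. That gave 15 probe sets for 10 genes, of 22626 probe sets for 12393 genes in all. RNA was measured on 4 Affymetrix mouse arrays, 2 of NKT-modulated DC and 2 of immature DC. Both groups were bone marrow dendritic cells of the C57BL/6 strain, with no transgene or deletion named in the labels, and the design text gives CD11c cells as the RNA source. How NKT cells were applied, for how long, and the age of the mice are not given in the labels. Nor do they say whether arrays of a group came from separate cultures, so the p-values cover no more than array-to-array spread, which can be technical. The design text speaks of triplicates and of a repeat, whereas 2 arrays per group were used here, and the array type it names carries more probe sets than the 22690 in the table.

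MS4A proteins are best known from single cell types. The founding member, CD20, marks B cells, and another is a subunit of the IgE receptor of mast cells and basophils. A further one is made by T cells. The other 7 genes described here are known mainly from monocytes, macrophages and dendritic cells. Several associate with other receptors in the membrane and alter their signalling. The genes were therefore read as 7 myeloid members (Ms4a4c, Ms4a4d, Ms4a6b, Ms4a6c, Ms4a6d, Ms4a7 and Ms4a8a) and 3 lymphocyte and mast cell members (Ms4a1, Ms4a2 and Ms4a4b), although Ms4a6b is also made by T cells.

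In NKT-modulated DC, 3 of the 7 myeloid members were higher than in immature DC, and 0 were lower. They were Ms4a7, Ms4a6d and Ms4a4c, higher by folds of 2.22, 1.99 and 2.04. Of the 3 lymphocyte and mast cell members, 0 were higher and 0 lower in the limma fit, also at an unadjusted p under 0.05. Among all genes, 5.99% were higher and 6.88% lower by the same call, an adjusted p under 0.05. At an unadjusted p under 0.05, 6 of the 10 members were higher and 0 lower, against 11.5% and 16.6% of all genes. The median log2 change was 0.50 over the myeloid members, 0.03 over the lymphocyte and mast cell members and -0.04 over all genes. Whether the 2 subgroups differ was not tested, and 2 of the 3 lymphocyte and mast cell genes were dim on every array.

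The cluster lies on mouse chromosome 19, and the RefSeq table of the GRCm38.p6 assembly places 21 Ms4a genes there. In its order the members run Ms4a8a, Ms4a1, Ms4a7, Ms4a4c, Ms4a4b, Ms4a6c, Ms4a6b, Ms4a4d, Ms4a6d and Ms4a2, with other Ms4a genes between some of them. The genes that rose are thus not all neighbours: Ms4a4b, Ms4a6c, Ms4a6b and Ms4a4d stand between Ms4a4c and Ms4a6d. RefSeq windows of the 250 bases before the start site were matched by symbol for 8 members, in 9 windows since Ms4a7 has 2 start sites. No window was matched for Ms4a1 and Ms4a6d.

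The upstream window of Ms4a7 is shown because it held the only match to the motifs searched. It is the GRCm38.p6 window chr19:11336147-11336396 on the minus strand, written 5′ to 3′, and the capitals mark a STAT6 site, the sequence form bound by the transcription factor that IL-4 and IL-13 activate.
Ms4a7: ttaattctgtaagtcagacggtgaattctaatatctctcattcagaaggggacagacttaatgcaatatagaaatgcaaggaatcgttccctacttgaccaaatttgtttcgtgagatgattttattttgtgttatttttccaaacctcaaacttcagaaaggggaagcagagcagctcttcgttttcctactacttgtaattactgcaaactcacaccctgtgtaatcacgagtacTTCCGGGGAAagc

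The match TTCCGGGGAA spans bases -13 to -4 from the start site. Each motif was searched on both strands, and those of STAT factors are their own reverse complement. The STAT6 letters were TTC and GAA with any 4 bases between, and those of the gamma-activated site (GAS) were TTC and GAA with any 3 between. The interferon-stimulated response element (ISRE) was GAAA, any 2 bases and GAAA. The composite site of PU.1 and IRF factors was GGAA, any 2 bases and GAAA, and the PU.1 site was GAGGAAG. The composite site ends in GAAA, with which the ISRE begins, so their matches can overlap. Among 32841 RefSeq windows of this length, a STAT6 match was held by 5.85%, an ISRE by 2.98%, a GAS by 7.02%, the composite site by 2.3% and the PU.1 letters by 10.6%. Of the 9 member windows, 1 held a STAT6 match and 0 held any of the other letters. A match describes the letters of a window and is no evidence of binding.

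Among all 36 pairs of the 9 windows, 2 pairs were alike over long stretches, and both were of adjacent members. Ms4a4c, which rose, and its neighbour Ms4a4b, which did not pass the threshold, are shown side by side with their longest shared run in capitals. Both are plus-strand GRCm38.p6 windows, chr19:11407411-11407660 for Ms4a4c and chr19:11443308-11443557 for Ms4a4b.
Ms4a4c: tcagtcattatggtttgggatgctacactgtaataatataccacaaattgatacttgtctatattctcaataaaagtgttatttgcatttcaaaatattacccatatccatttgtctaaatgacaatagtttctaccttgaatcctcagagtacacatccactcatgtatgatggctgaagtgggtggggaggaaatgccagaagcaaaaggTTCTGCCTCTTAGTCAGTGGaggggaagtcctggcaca
Ms4a4b: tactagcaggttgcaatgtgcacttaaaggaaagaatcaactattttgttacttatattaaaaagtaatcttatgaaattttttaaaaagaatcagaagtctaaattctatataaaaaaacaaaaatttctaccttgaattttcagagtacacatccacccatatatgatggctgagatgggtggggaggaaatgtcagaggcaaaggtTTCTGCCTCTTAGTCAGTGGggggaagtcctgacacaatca

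The shared run is 20 bases long. A local alignment of both windows covered 133 columns, of which 88.0% were identical. The other alike pair was Ms4a6b at chr19:11518309-11518558 and Ms4a6c at chr19:11469118-11469367, again on the plus strand, with a shared run of 48 bases in capitals and 82.2% identity over 180 aligned columns.
Ms4a6b: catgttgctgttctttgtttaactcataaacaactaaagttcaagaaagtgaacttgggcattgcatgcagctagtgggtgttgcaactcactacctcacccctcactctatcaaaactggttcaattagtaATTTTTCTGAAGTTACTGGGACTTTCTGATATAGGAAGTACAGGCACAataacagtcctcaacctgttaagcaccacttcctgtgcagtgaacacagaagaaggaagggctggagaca
Ms4a6c: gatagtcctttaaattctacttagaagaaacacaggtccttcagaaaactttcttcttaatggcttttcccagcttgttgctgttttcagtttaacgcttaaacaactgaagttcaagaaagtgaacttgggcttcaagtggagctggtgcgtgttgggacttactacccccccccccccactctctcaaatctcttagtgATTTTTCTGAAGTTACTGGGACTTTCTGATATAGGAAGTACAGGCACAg

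In the other 34 pairs the longest shared run was 6 to 9 bases. In the first alike pair Ms4a4c passed the threshold and Ms4a4b did not, and in the second neither Ms4a6b nor Ms4a6c passed. Whether the changes within each pair differ was not tested.

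Ms4a7 is a macrophage gene of the family. Its deposited signals were 1083 and 943 in the NKT-modulated arrays, against 467 and 538 in the immature arrays. Both NKT-modulated arrays stood well above both immature arrays. On the normalized log2(signal + 16) scale, on which all changes here are given, Ms4a7 rose by 1.15 ± 0.11 (SE, n = 2 arrays per group, as below; limma adjusted p = 0.00235), a fold of 2.22. Among 12129 other named genes, those whose values moved over the 4 arrays most like it were Arhgef3, Ccl3 and Cptp. Their Euclidean distance from Ms4a7, after each gene was centred on its own mean, was 0.060, 0.060 and 0.078 log2 units. Ccl3, an inflammatory chemokine, rose by 1.15 ± 0.11, a like rise that follows from how the gene was picked. A link between Ccl3 and Ms4a7 was not tested.

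Ms4a6d, known from macrophages, has 3 probe sets. The brightest, of a kind that can also bind related transcripts, had signals of 6279.9 and 6128 in NKT-modulated DC and 2572 and 3669 in immature DC. It rose by 0.99 ± 0.13 (limma adjusted p = 0.00609). Another had 5704 and 5570.2 in NKT-modulated DC, against 2329 and 3163 in immature DC, and rose by 1.04 ± 0.11 (limma adjusted p = 0.00327). In both, the NKT-modulated arrays lay close together and the immature arrays lay apart, with no overlap of the groups. Without the intensity trend the brightest probe set missed the threshold (adjusted p = 0.0627) and the other passed it (0.0488). The third gave no usable signal, with 2.57 and 5.91 in NKT-modulated DC and 10.6 and 1.42 in immature DC, all below the pseudocount of 16. Its change was -0.09 ± 0.26 (limma adjusted p = 0.889), so the call rests on the bright probe sets.

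**Figure D1:**
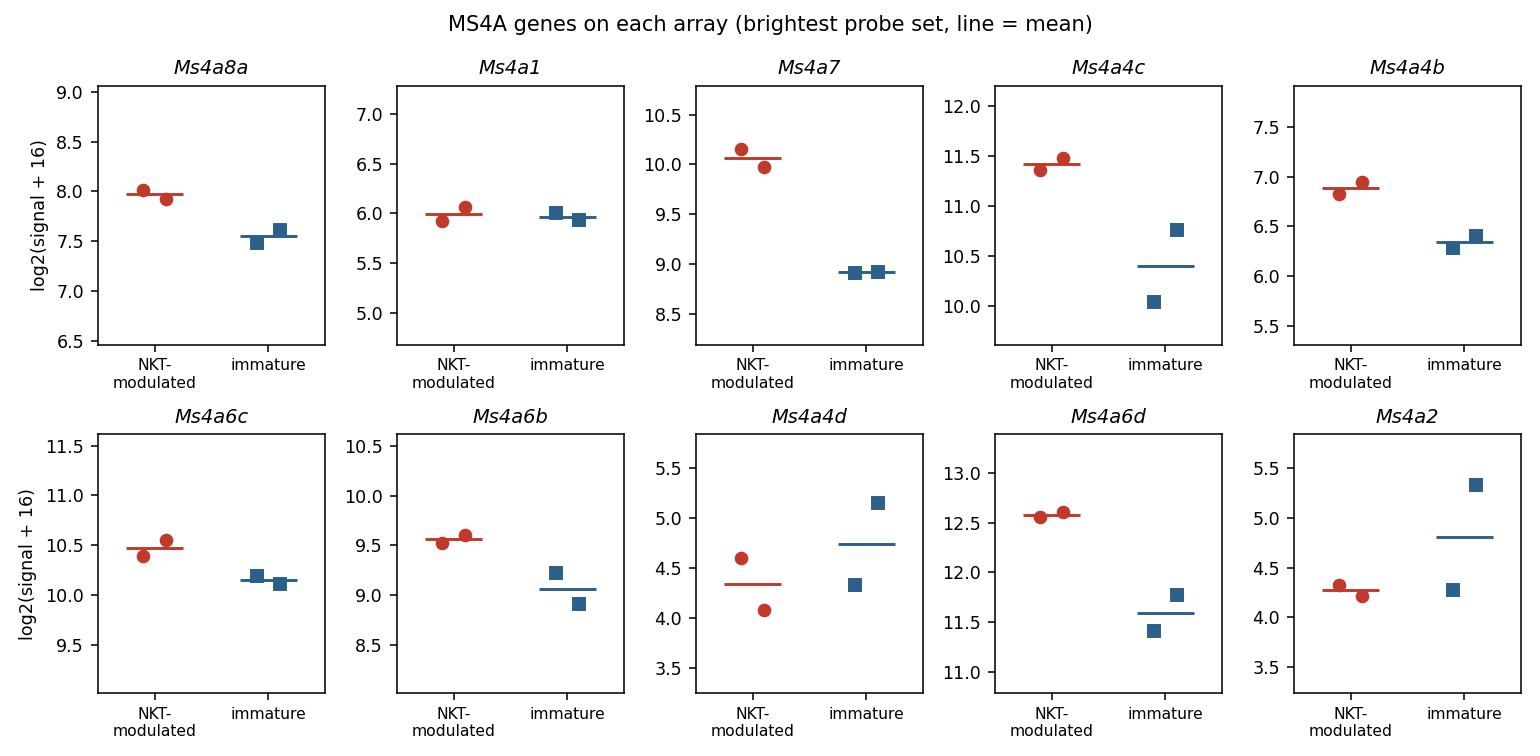
Normalized log2(signal + 16) of the 10 MS4A genes on each array, 1 panel per gene and its brightest probe set, with NKT-modulated DC as red circles on the left, immature DC as blue squares on the right and group means as lines; every panel spans the same number of log2 units. The NKT-modulated arrays of Ms4a7, Ms4a4c and Ms4a6d stand above both immature arrays, while those of Ms4a1, Ms4a4d and Ms4a2 overlap with them.

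Ms4a4c, a mouse gene known to respond to interferon, was measured by 2 probe sets of the kinds that can also bind related transcripts. The brighter had signals of 2633 and 2766 in NKT-modulated DC and 1015 and 1884 in immature DC. It rose by 1.03 ± 0.22 (limma adjusted p = 0.0377). The immature arrays differed widely from each other, and without immature replicate 1, the lower of them, the change was 0.67. The other probe set had 2366 and 2368 in NKT-modulated DC, against 1017 and 1548 in immature DC. It rose by 0.98 ± 0.15 (limma adjusted p = 0.0113). Without NKT-modulated replicate 1 the 2 probe sets had adjusted p = 0.126 and 0.0665, and without NKT-modulated replicate 2 they had 0.143 and 0.0645, so Ms4a4c was called with both NKT-modulated arrays and with neither alone. Without further normalization the brighter probe set missed the threshold (adjusted p = 0.0545), as did both with no variance trend (0.132 and 0.0760). Because the sequences of MS4A genes are related, signal from a close relative cannot be told apart here. The brighter probe set of Ms4a4b had 96.1 and 98.1 in NKT-modulated DC and 62.1 and 72.0 in immature DC. The part of any relative in the Ms4a4c signals was not tested.

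The other myeloid members with clear signals had smaller changes that missed the threshold. Ms4a6b, a gene of T cells as well as of myeloid cells, had signals of 687 and 716 in NKT-modulated DC, against 579.7 and 532 in immature DC. Its groups did not overlap, and its change was 0.50 ± 0.14 (limma adjusted p = 0.0770, 95% interval 0.16 to 0.84). It passed only where dim probe sets were left out of the fit (adjusted p = 0.0457).

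Ms4a6c, which is next to Ms4a4b in the cluster, had 1292 and 1426 in NKT-modulated DC and 1135 and 1210.4 in immature DC. Its change was 0.32 ± 0.10 (limma adjusted p = 0.106, 95% interval 0.08 to 0.56). Ms4a8a, known from macrophages under alternative activation, had 228 and 204.7 in NKT-modulated DC and 168 and 204.9 in immature DC. These deposited signals touch, and only after normalization did the groups separate, with a change of 0.42 ± 0.17 (limma adjusted p = 0.195, 95% interval 0.004 to 0.84). Without further normalization the changes of Ms4a6b, Ms4a6c and Ms4a8a were smaller, at 0.33 ± 0.14, 0.21 ± 0.12 and 0.21 ± 0.21 (limma adjusted p = 0.197, 0.352 and 0.626).

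Ms4a4d was not measurable, with signals of 8.98 and 0.883 in NKT-modulated DC and 4.32 and 19.1 in immature DC. Its change of -0.40 ± 0.35 (limma adjusted p = 0.549) rests on signals about or below the pseudocount. In all, 7 members reached a signal of 50 on every array (6 myeloid members and Ms4a4b), and 3 members stayed below 50 on every array (Ms4a1, Ms4a2 and Ms4a4d).

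**Figure D2:**
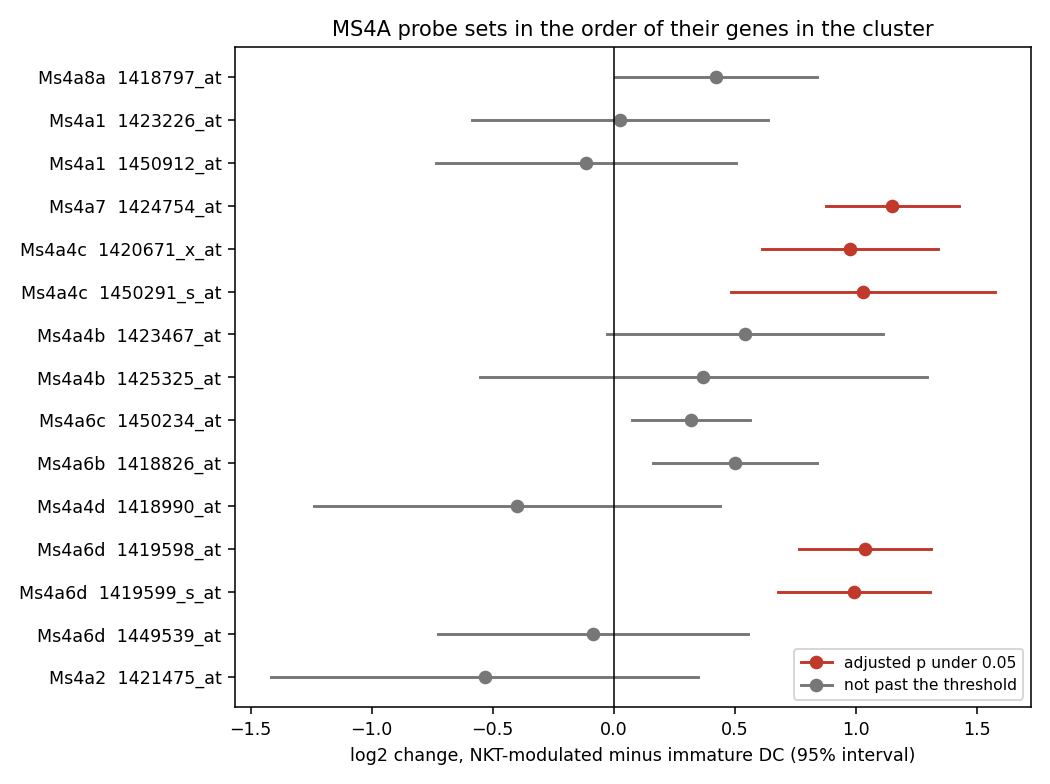
Log2 change (horizontal axis, NKT-modulated minus immature DC, log2 units) of the 15 MS4A probe sets with its 95% interval from limma, in the order of the genes along the cluster from top to bottom; red marks an adjusted p under 0.05. The 5 red probe sets, of Ms4a7, Ms4a4c and Ms4a6d, lie between 0.98 and 1.15, and 0 probe sets passed the threshold on the lower side.

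By probe set, 5 of 15 were higher and 0 lower, against 5.36% and 5.7% of all probe sets. At an unadjusted p under 0.05, 8 were higher and 0 lower, against 10.9% and 14.3% of all probe sets. By gene, 7 of the 10 members had both NKT-modulated arrays above both immature arrays on the normalized scale, against 23.9% of all genes. The 7 are the members that reached a signal of 50 on every array, and 6 of them are myeloid. For Ms4a8a, 1 of the 7, this did not hold on the deposited signals. The share of all genes also counts dim ones, 3042 of 12393 being below 50 on every array, so the 2 shares are not like for like.

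Ms4a4b, the T cell member, is known as a modulator of T cell activation. Its brighter probe set had signals of 96.1 and 98.1 in NKT-modulated DC, against 62.1 and 72.0 in immature DC. The groups did not overlap, but the change of 0.54 ± 0.23 missed the threshold (limma adjusted p = 0.221, 95% interval -0.03 to 1.11). The other probe set was dim, with 29.4 and 13.3 in NKT-modulated DC and 23.3 and 3.96 in immature DC, and its change was 0.37 ± 0.38 (limma adjusted p = 0.624).

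Many T cell markers, though not all, moved far more in the same arrays. Of 15 measured, 10 were higher and 0 lower, with a median change of 2.31, and their summed signal was 5703 to 7436 in NKT-modulated DC against 1284 to 1374 in immature DC. Cd3g, a chain of the T cell receptor complex, had signals of 1401 and 1046 in NKT-modulated DC and 19.0 and 15.4 in immature DC, and rose by 5.26 ± 0.20 (limma adjusted p = 9.17e-05). No defining T cell marker was listed at 0. Zap70, Cd6 and Cd5, by contrast, changed by only 0.26 ± 0.195, 0.23 ± 0.19 and 0.23 ± 0.27 (limma adjusted p = 0.480, 0.539 and 0.663). In bulk RNA, more cells of a type and more RNA per cell cannot be told apart. The part of T lineage RNA in the values of Ms4a4b, Ms4a6b and the other members was not tested.

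Ms4a1 encodes CD20, the B cell antigen. Its brighter probe set had 46.8 and 47.8 in NKT-modulated DC and 48.7 and 45.4 in immature DC, nearly the same on all arrays. The change was 0.03 ± 0.25 (limma adjusted p = 0.970, 95% interval -0.58 to 0.64), and that of the other, dimmer probe set was -0.12 ± 0.25 (limma adjusted p = 0.841). Of 11 measured B cell markers, 2 were higher and 1 lower, with a median change of 0.003 and a summed signal of 2483 to 2675 in NKT-modulated DC against 2326 to 2811 in immature DC. Those that changed were Cd79b, a chain of the B cell receptor, which rose by 2.47 ± 0.23, Blnk, an adaptor of that receptor also made by myeloid cells, which rose by 1.22 ± 0.11, and Ighm, the heavy chain of IgM, which fell by 0.99 ± 0.14.

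Ms4a2 encodes the beta chain of the high-affinity IgE receptor. Its signals were 4.46 and 2.41 in NKT-modulated DC and 3.67 and 23.7 in immature DC, so that 3 of 4 arrays lay below the pseudocount. The change of -0.53 ± 0.36 (limma adjusted p = 0.439) rests on immature replicate 2 alone and was -0.007 without it. Its partner Fcer1a, the IgE-binding chain, was also dim, with 20.7 and 12.0 in NKT-modulated DC and 15.7 and 19.1 in immature DC (limma adjusted p = 0.928). Fcer1g, the signalling chain that many other Fc receptors share, had 4071 and 4094 in NKT-modulated DC against 4708 and 5832 in immature DC (change -0.39 ± 0.09, limma adjusted p = 0.0527). Of the 11 measured genes of this receptor and its signalling, 2 were higher and 2 lower, with a median change of -0.39. Of 10 mast cell and basophil markers, 1 was higher (Hdc, the enzyme that makes histamine, also made by activated myeloid cells) and 1 lower (Kit, the stem cell factor receptor). By its brightest probe set Kit fell by 0.88 ± 0.175, and another Kit probe set did not pass the threshold (change -0.46 ± 0.26, limma adjusted p = 0.347). Hdc rose by 3.38 ± 0.22. The summed signal of the 10 markers, which holds these opposite changes, was 931 to 1075 in NKT-modulated DC against 1035 to 1103 in immature DC.

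Markers of the labelled cells were present in both groups. Itgax, the gene of CD11c, had signals of 5253 and 4643 in NKT-modulated DC and 5442 and 5537 in immature DC (limma adjusted p = 0.204). Of 14 dendritic cell markers, 5 were higher and 0 lower, with a median change of 0.18. Monocyte and macrophage markers were bright as well, and here 1 of 19 was higher and 7 lower, with a median change of -0.27 and a summed signal of 59080 to 59670 in NKT-modulated DC against 61900 to 62040 in immature DC. Mertk, a receptor for dying cells, rose by 1.09 ± 0.09. The monocyte chemokine receptor gene Ccr2 fell by 2.03 ± 0.21, Cd14 by 0.54 ± 0.08 and the complement gene C1qc by 0.73 ± 0.11. Most of the 19 markers passed the threshold in neither direction. The rises of Ms4a7, Ms4a6d and Ms4a4c thus stood beside falls in some other genes known from the same cell types. The part of the cell makeup in these rises was not tested.

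**Figure D3:**
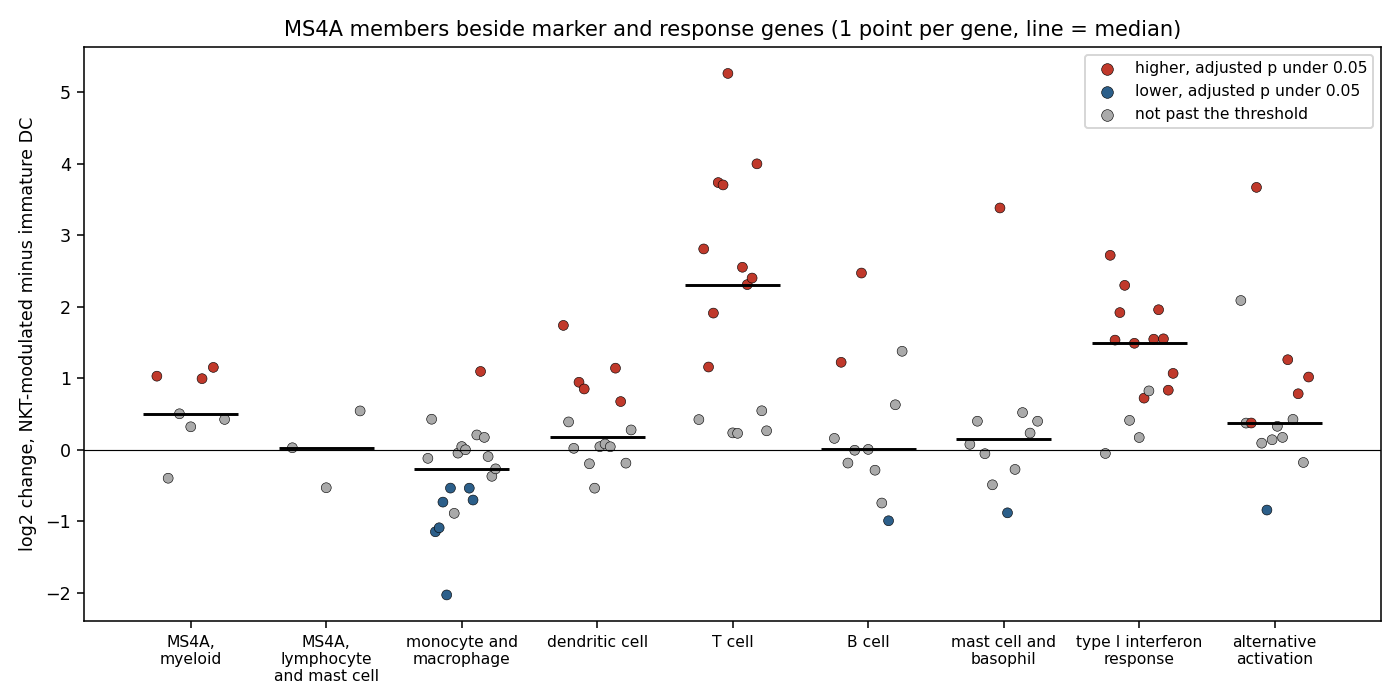
Log2 change (vertical axis, NKT-modulated minus immature DC) of each measured gene in the MS4A subgroups and in lists of marker and response genes, 1 point per gene by its brightest probe set, with the list median as a line; red is higher and blue lower at an adjusted p under 0.05. The myeloid MS4A members have a median of 0.50, next to 2.31 for T cell markers and -0.27 for monocyte and macrophage markers.

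Genes of the programs with which MS4A members are known to be induced were also read. Of 15 type I interferon response genes, 11 were higher and 0 lower, with a median change of 1.49, among them Ifi204, a DNA sensor of the p200 family, which rose by 2.72 ± 0.12. Of 14 genes of alternative macrophage activation, 5 were higher and 1 lower, with a median of 0.37. Ccl24, an eosinophil attractant, rose by 3.67 ± 0.14, whereas Clec10a, a lectin of macrophages and DC, fell by 0.85 ± 0.15. Of 5 measured genes whose proteins are reported partners of MS4A proteins, 2 were higher and 0 lower. They were Cd40, the costimulatory receptor, and Tnfrsf18, the gene of GITR, which rose by 0.82 ± 0.17. Trem2, a lipid receptor of macrophages, had a change of -0.37 ± 0.16 (limma adjusted p = 0.208).

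Of the other Ms4a genes and their TMEM176 relatives, 4 genes were measured, and 0 were higher or lower in the limma fit, also at an unadjusted p under 0.05 by brightest probe set. Ms4a3, a gene of granulocyte and monocyte progenitors, had signals of 76.3 and 54.6 in NKT-modulated DC and 72.5 and 72.4 in immature DC. Tmem176b, which is expressed in dendritic cells, had 3759 and 3102 in NKT-modulated DC and 3136 and 2941 in immature DC. A dimmer probe set of Tmem176a, the paired relative, had a change of 0.34 ± 0.08 (limma adjusted p = 0.0564). The largest change of these 4 genes was -0.70 ± 0.35 for Ms4a10 (limma adjusted p = 0.278), on signals of 31.2 and 8.44 in NKT-modulated DC against 38.2 and 40.2 in immature DC. Of 10 neutrophil and granulocyte progenitor markers, 2 were higher and 0 lower, and of 8 NK cell markers, 1 was higher and 1 lower.

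The call of each member depended on the settings to a different degree. Ms4a7 passed in 10 of 11 alternatives, with changes of 0.99 to 1.23. The Ms4a6d probe set with the smaller p passed in 10 of 11, with changes of 0.89 to 1.20, and its brightest probe set in 9. The probe sets of Ms4a4c passed in 6 and in 7 of 11. Without the intensity trend of the variance, 1 member gene was higher by its brightest probe set, Ms4a7 (adjusted p = 0.0324). At an adjusted p under 0.001, the level written in the study's design, 0 members were higher and 0 lower. Of all 22626 probe sets, 197 were higher and 36 lower at that level, 1.03% in both directions together.

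**Figure D4:**
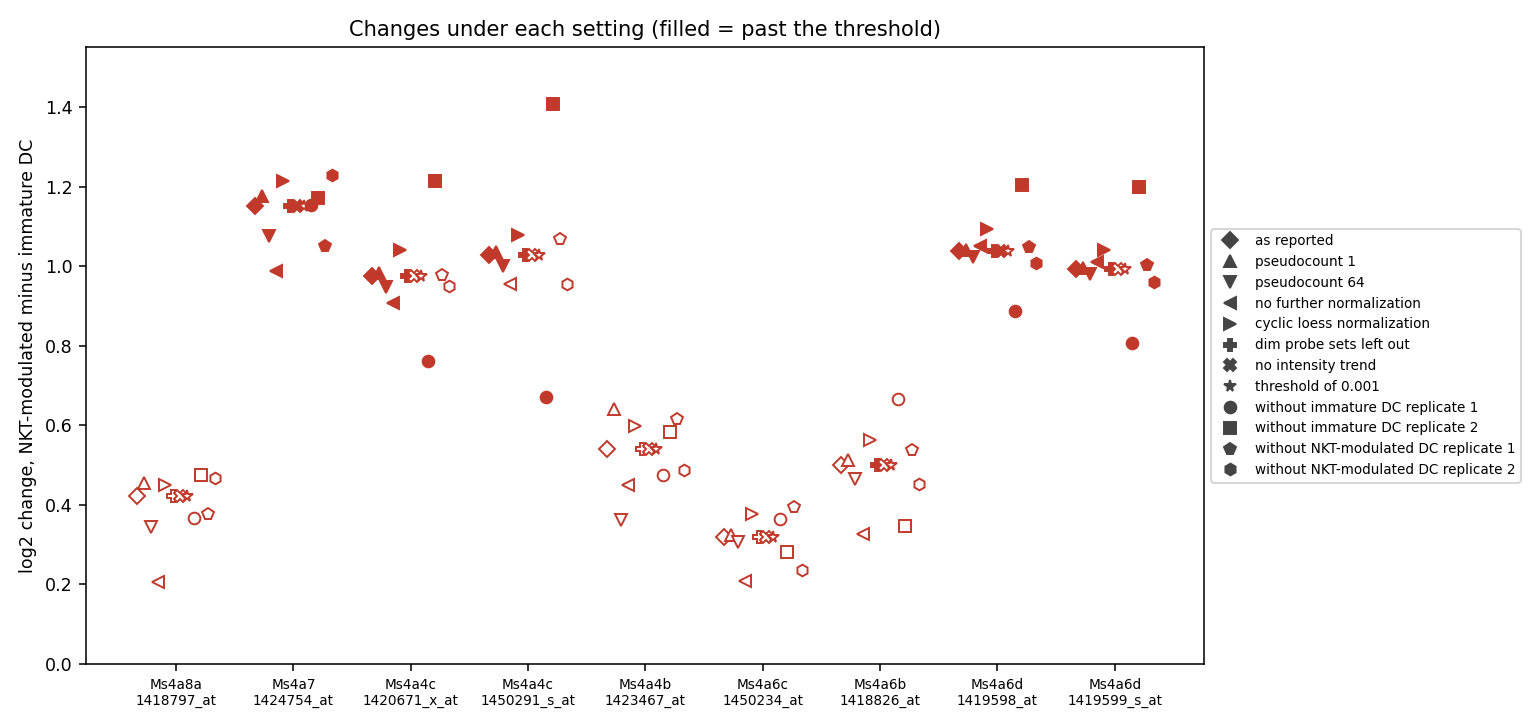
Log2 change (vertical axis, NKT-modulated minus immature DC) of the 9 MS4A probe sets with signals of 50 or more on every array, under the reported setting and each alternative, 1 symbol per setting; filled symbols passed the threshold. Ms4a7 and Ms4a6d stay filled in most settings, whereas Ms4a4c opens when either NKT-modulated array is left out.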

How the data were processed

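RNA was measured in 2 arrays of NKT-modulated DC and 2 of immature DC. The deposited values are intensities on a linear scale, with 1 signal for each probe set on an array. The authors used GCOS, the scanner's software, per the submitters' processing notes; how it summarised and scaled probes is not given in the sources used here. According to the design text labelling took 1 cycle, and the sample labels name another assay, so the amplification is unsettled. No detection calls were used, and the number of arrays limits the precision.

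Of 22690 probe sets, 64 controls were left out. Signals were turned into log2(signal + 16), which understates changes of dim genes, and quantile normalized, since array quartiles differed by 0.27. All 22626 probe sets were fitted with limma 3.58.1 in R 4.3.3 (lmFit, then two-sided eBayes tests with the trend option) and adjusted over all of them by Benjamini-Hochberg; a call is an adjusted p under 0.05. The fit had 2 residual and 4.13 prior degrees of freedom. The steps were tested on simulated data.

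Names came from the platform's annotation (20380 probe sets with 1 symbol, 691 with several, 1555 unnamed here; 20351 updated by gene ID through RefSeq's GRCm38.p6 table). A gene is its brightest probe set. Members, lists and the naming rule (all members, measured relatives, up to 4 genes per list with the smallest p or on which a result turns, and the nearest 3 genes by pattern) were chosen with earlier results of these data known. The partners, receptor signalling and alternative activation lists overlap with other lists in part. Promoter sequences are RefSeq's, GRCm38.p6; windows were aligned locally (match 1, mismatch -1, gap opening -3, extension -1). Alternatives changed the pseudocount, normalization, dim filter, trend, threshold, probe set rule and arrays used.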

Additional observations from a re-analysis of the deposited data

How the results depend on the processing

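The count of member genes higher stayed within 1.5 times of 3 under every alternative but 2: it was 1 without the intensity trend and 0 at a threshold of 0.001. The count of member probe sets higher, 5 as reported, was 2 and 0 under these settings and 3 to 5 when 1 array was left out, 3 without either NKT-modulated array. The count of lower members was 0 throughout. For single probe sets, 142 of 159 alternative values kept their side of the threshold with no change of sign beyond 1 SE, 13 were no longer past it, 1 was newly past it and 3 changed sign by more than that. Those 3 were uncalled probe sets with signals near or below the pseudocount: leaving out 1 array gave -0.37 to 0.195 for the dim probe set of Ms4a6d, -0.088 to 0.83 for that of Ms4a4b and -0.81 to 0.013 for Ms4a4d. With the pseudocount at 1 and 64, the change of Ms4a7 was 1.18 and 1.08. A group left with 1 array is assumed to vary like the other. No paired analysis was possible because the labels give no replicate numbers that the groups share.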
